A study of Mus musculus with 2 samples.

Results

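Proliferating T cells of the mouse ileum were chosen by measured values, as the barcodes that held at least 5 UMIs (unique molecular identifiers, each standing for 1 captured RNA molecule) summed over 6 cell division genes, with at least 3 of the 6 found. The 6 genes were Mki67, a coat protein of mitotic chromosomes, Pclaf, a partner of the replication clamp, Birc5, a subunit of the chromosomal passenger complex, Stmn1, a regulator of microtubules, Spc24, a kinetochore protein, and Uhrf1, which carries DNA methylation through replication. They were sought among barcodes with at least 500 UMIs, at least 300 genes, at most 10% of UMIs on mitochondrial genes and at most 2 UMIs of the pseudogene Rps19-ps6. Of 10599 barcodes kept by these limits, 66 were members, 24 of 4965 in the SAP library and 42 of 5634 in the Control library. Members were therefore 0.483% of kept SAP barcodes (exact 95% interval 0.310 to 0.718) and 0.745% of kept Control barcodes (0.538 to 1.01). The ratio of the shares, SAP over Control, was 0.648, with an exact interval of 0.376 to 1.10 that spans equal shares.

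In the study, dendritic cells were treated with phages and cultured together with T cells from the gut of GF mice, and an enzyme tagged the T cells that touched them with fucosyl-biotin (the FucoID system). The SAP library stands for phages of SAP mice, and the Control library, by its name, for phages of healthy mice; the labels do not spell out this pairing or say what SAP abbreviates, and no strain, age or number of animals is given in the sources used here. Both libraries were made from ileum T cells with a 10x Genomics 3' kit, and it is not stated whether the cells sequenced were the tagged fraction or all cells of the culture. There was 1 library per group and hence no replicate check, so that every interval below covers counting error alone and no test between SAP and Control was made.

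A dividing T cell copies its DNA in S phase with a set of enzymes that load, open and extend the replication forks, and then switches in G2 and mitosis to kinases, kinesins and kinetochore proteins that condense and part the chromosomes. Most T cells of the ileal epithelium are long-lived, resting cytotoxic cells. They comprise gamma-delta cells and CD8 alpha-alpha cells with innate adaptors such as Tyrobp and Fcer1g, beside conventional cells with the CD8 alpha-beta or CD4 coreceptor.

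The members were T cells by their markers. All 66 held UMIs of the CD3 genes and of an alpha-beta receptor chain, and the 12 T cell markers summed to 7 to 235 UMIs per member, with a median of 64. Summed over members, these markers stood at 6832 CPM in SAP and 7629 CPM in Control (UMIs of the gene per 1000000 UMIs), against 8236 and 8260 CPM in the other kept barcodes. Markers of several other cells were mostly at 0: all 8 markers of neutrophils or mast cells, 8 of 9 of macrophages or monocytes and 7 of 12 of dendritic cells were at 0 in the members. The dendritic cell markers, which would show the partner cells of the culture, summed to 39.4 CPM in SAP members and 69.4 CPM in Control members, against 86.0 and 90.2 CPM in the other kept barcodes. B cell markers, with 3 of 8 at 0, summed to 46.5 CPM in SAP members and 53.4 CPM in Control members, against 43.7 and 45.4 CPM, and markers of innate lymphoid or NK cells, with 4 of 8 at 0, to 122 and 32.0 CPM, against 99.9 and 108 CPM. Their part in the results was not tested. The epithelial list, with 7 of 14 at 0, summed to 64.4 CPM in SAP members and 58.8 CPM in Control members, against 186 and 158 CPM in the other kept barcodes. Plasma cell genes were at 0 in SAP members and at 34.7 CPM in Control members, against 29.5 CPM in the SAP others and 1207 CPM in the Control others.

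Members were deep barcodes. Their median depth was 11159 UMIs in SAP (2495 to 29813) and 7508 UMIs in Control (1665 to 26616), against 3395 and 3126.5 UMIs in the other kept barcodes. Scrublet's own threshold marked no barcode as a doublet in either library, so it gave no usable call. None of the 66 members was among the 197 SAP and 254 Control barcodes with the top doublet scores. The libraries shared 6 deposited barcodes, none of them a member. The part of cell size and of undetected doublets in the depth of the members was not tested.

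**Figure D1:**
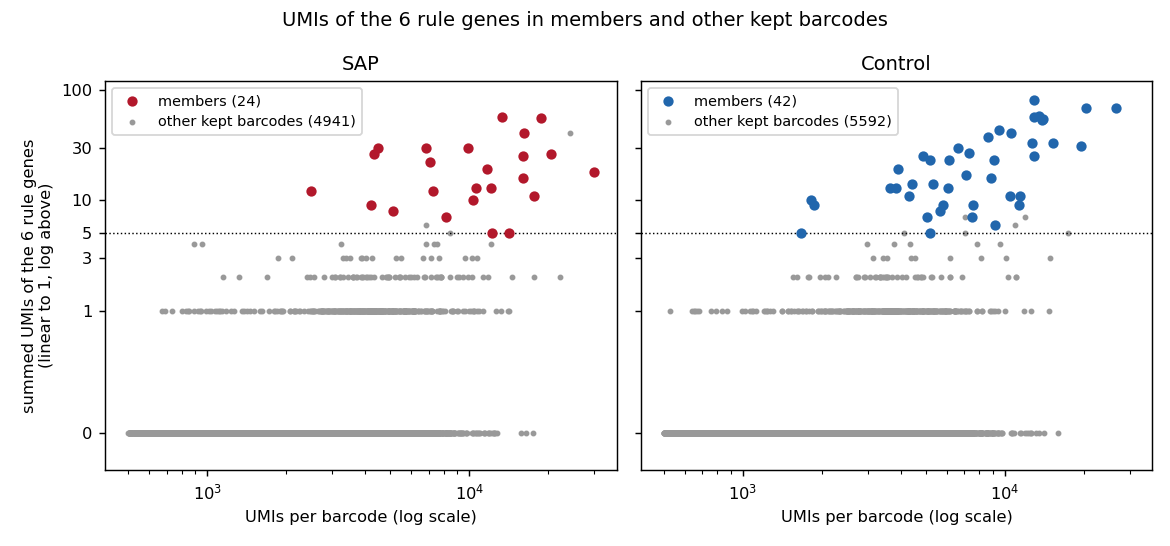
Summed UMIs of the 6 rule genes (vertical axis, log above 1) against all UMIs (horizontal axis, log) for each barcode of the SAP library (left) and the Control library (right), with members in colour, other kept barcodes in grey and a dotted line at 5. Members reach 57 UMIs in SAP and 81 in Control, and 91.4% of kept barcodes lie at 0.

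The rule chose the members on these 6 genes, so their values are a description. Stmn1 was found in 65 of the 66 members, Mki67 in 60, Pclaf in 56, Birc5 in 47, Spc24 in 42 and Uhrf1 in 35. All 6 were found together in 22 members, and 17 members had only the required 3. Mki67 stood at 326 CPM in SAP members and 518 CPM in Control members, against 8.52 and 7.45 CPM in the others, and Pclaf at 458 and 665 CPM in members, against 2.44 and 1.77 CPM. The median sum was 17 UMIs in SAP members and 18 in Control members. At the edge of the rule, 4 members had exactly 5 UMIs and 12 kept barcodes outside had 4, of which 4 held 3 of the genes. Another 9 barcodes reached 5 UMIs with fewer than 3 of the genes, among them 1 SAP barcode with 41.

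To describe the rest of the transcriptome, UMIs were summed over members and over the other kept barcodes in each library, and a fold is the mean CPM of both libraries in members over that in the others. A gene was eligible with at least 50 CPM in either set and at least 20 UMIs, and it was counted as higher or lower when its fold was at least 2 in the same direction in both libraries. Of 3313 eligible genes, 10.7% (354 genes) were higher in members and 7.61% (252 genes) were lower, with a median log2 fold of -0.03. The 6 rule genes were measured in the same cells as all others, so nothing is read from these shares beyond a scale for the gene groups that follow. With TMM scaling in place of plain totals, 246 genes were higher and 381 lower, as the median log2 fold moved to -0.24. A gene could pass the eligibility limit through the set where it was higher, so the counts below describe the lists and carry no test.

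Most eligible genes of the DNA replication machinery were higher in members. Of 50 replication genes, 29 were eligible and 23 of them were higher in members in both libraries, none lower, with a median log2 fold of 2.47. Mcm5, a subunit of the helicase that opens the DNA ahead of the fork, stood at 125 CPM in SAP members and 168 CPM in Control members, against 11.1 and 10.5 CPM in the others, a fold of 13.6. Cdc6, which loads that helicase, was 26.1-fold higher, and Rad51ap1, a repair factor found in 25 members, was 133-fold higher over others at 0.290 and 0.552 CPM. Pcna, the replication clamp, showed a smaller difference from a higher base, with 390.1 CPM in SAP members and 483 CPM in Control members, against 196 and 197 CPM in the others. Its fold was 1.99 (1.63 to 2.41) in SAP and 2.45 (2.10 to 2.84) in Control, so it missed the 2-fold limit in SAP. Against others of like depth it passed, with a fold of 2.32.

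Enzymes that make DNA precursors were higher as well. Among 12 eligible genes of 21, 10 were higher and none lower. Thymidine kinase Tk1 stood at 85.9 CPM in SAP members and 120.2 CPM in Control members, against 1.91 and 1.32 CPM in the others, a fold of 63.6. The ribonucleotide reductase subunit Rrm2 was 21.8-fold higher and thymidylate synthase Tyms 21.3-fold higher, each found in 43 members. Dut, which removes dUTP, was 9.75-fold higher and was found in 57 members. Impdh2 and Gmps, which lead to guanine nucleotides, had folds of 1.17 and 1.52.

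Most eligible genes of G2 and mitosis were higher in members. Of 67 genes 34 were eligible, and 32 were higher in both libraries and none lower, with a median log2 fold of 4.93. Ube2c, which feeds the anaphase-promoting complex, stood at 154 CPM in SAP members and 326 CPM in Control members, against 2.03 and 2.26 CPM in the others, a fold of 112. Top2a, the topoisomerase that untangles sister chromatids, stood at 336 and 579 CPM in members, against 30.4 and 22.6 CPM, a fold of 17.3. Cyclin A2 (Ccna2) was 208-fold higher, cyclin B2 (Ccnb2) 46.0-fold and the kinase Cdk1 30.7-fold. The exceptions were Cenpa, the histone of the centromere, whose fold was 1.12 in SAP (0.801 to 1.54) and 2.22 in Control, and Pttg1, or securin, which holds sister chromatids together until anaphase. Pttg1 stood at 50.1 CPM in SAP members and 45.4 CPM in Control members, against 89.3 and 95.1 CPM in the others, a fold of 0.518. It was listed at 344 and 326 CPM in the barcodes that the Rps19-ps6 limit had left out.

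Replication genes and mitosis genes differed in the promoter letters that their groups share, and 4 promoters are shown for that reason, picked after their values were seen. Promoters here run from 250 bases before to 50 after each start in RefSeq's GRCm38.p6, the same assembly as the mm10 named in the submitters' notes. On both strands, capitals mark E2F letters (TTTGGCGC, TTTCGCGC, TTTCCCGC or TTTGCCGC), the cell cycle homology region letters (TTTGAA) and CCAAT, which can overlap.
Mcm5 (chr8:75109259-75109558, plus strand): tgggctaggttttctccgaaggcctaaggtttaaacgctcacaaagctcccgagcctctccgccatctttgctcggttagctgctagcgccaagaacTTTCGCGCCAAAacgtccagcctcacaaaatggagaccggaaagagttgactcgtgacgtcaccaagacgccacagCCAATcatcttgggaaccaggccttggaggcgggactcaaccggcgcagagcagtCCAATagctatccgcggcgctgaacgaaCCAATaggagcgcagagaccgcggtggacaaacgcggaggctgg
Mcm3 (chr1:20820263-20820562, minus strand): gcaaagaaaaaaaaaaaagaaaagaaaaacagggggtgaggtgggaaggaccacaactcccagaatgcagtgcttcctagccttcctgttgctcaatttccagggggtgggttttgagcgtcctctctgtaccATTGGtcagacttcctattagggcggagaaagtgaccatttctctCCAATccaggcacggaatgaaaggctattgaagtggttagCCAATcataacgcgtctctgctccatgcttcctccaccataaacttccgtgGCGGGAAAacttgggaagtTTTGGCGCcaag
Ube2c (chr2:164769679-164769978, plus strand): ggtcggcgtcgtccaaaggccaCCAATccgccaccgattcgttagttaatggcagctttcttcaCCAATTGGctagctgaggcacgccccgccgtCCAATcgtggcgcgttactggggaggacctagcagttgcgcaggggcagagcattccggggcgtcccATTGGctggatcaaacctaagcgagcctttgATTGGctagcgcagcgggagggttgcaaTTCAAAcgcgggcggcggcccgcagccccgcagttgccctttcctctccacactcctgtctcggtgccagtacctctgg
Top2a (chr11:99024140-99024439, minus strand): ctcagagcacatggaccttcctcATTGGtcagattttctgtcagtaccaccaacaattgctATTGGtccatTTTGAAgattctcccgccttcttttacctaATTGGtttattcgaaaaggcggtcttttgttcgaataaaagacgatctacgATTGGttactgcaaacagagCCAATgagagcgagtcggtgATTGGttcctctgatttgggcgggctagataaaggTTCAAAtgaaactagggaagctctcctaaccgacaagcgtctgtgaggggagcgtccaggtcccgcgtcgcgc

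E2F factors are known as activators of S phase genes, and the TTTGAA and CCAAT letters are known from promoters of mitotic genes. E2F letters were found in 15 of 37 replication genes with a promoter in the table (40.5%) and in 5 of 55 mitosis genes (9.09%), against 2.61% of all 27025 genes. TTTGAA was found in 38 of 55 mitosis genes (69.1%) and 7 of 37 replication genes (18.9%), against 20.2% of all genes. CCAAT was found in 41 of 55 mitosis genes (74.5%) and 21 of 37 replication genes (56.8%), against 41.1% of all genes. A match describes letters in the window and is no evidence of binding.

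The members differed in how much of these programmes they carried, and some carried little. Over the 66 members, UMIs of the replication list ran from 2 to 158 with a median of 55, and those of the mitosis list from 3 to 267 with a median of 39.5. Per 10000 UMIs the medians were 62.3 and 49.5 in members, against 12.1 and 6.82 in the other kept barcodes. The ranges overlapped: the 10th percentile of members was 11.6 and 15.8, and the 90th percentile of the others 25.4 and 17.1. A SAP member with 12178 UMIs, 5 of them from the rule genes, was low on both lists, at 7.39 and 12.3. Replication UMIs were more than 2 times the mitosis UMIs in 21 members (7 SAP, 14 Control), the reverse held in 18 (6 SAP, 12 Control), and 27 (11 SAP, 16 Control) lay between. These are ranges and not classes, since 17 members lay within 1.2-fold of either limit.

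The rule genes themselves were spread over these ranges. Birc5 stood at 63.6 CPM in the members with the most replication UMIs, 269.9 CPM in those between and 599 CPM in those with the most mitosis UMIs. Uhrf1 stood at 141, 168 and 47.1 CPM in the same order, lowest in the mitosis-rich members. Pclaf was found in 20 of the 21 replication-rich members and 11 of the 18 mitosis-rich members, and Birc5 in 6 and 17 of them. Clustered histone genes, which are transcribed during S phase and largely lack poly(A) tails, were at a median of 4.92 UMIs per 10000 in the replication-rich members, 39.1 in those between and 19.7 in the mitosis-rich members.

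**Figure D2:**
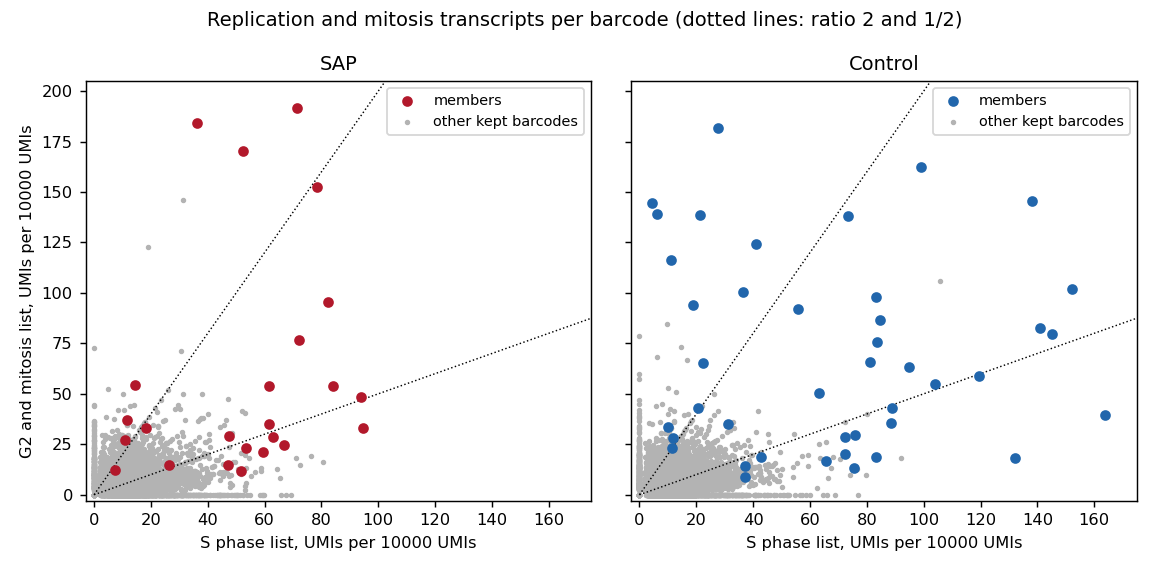
UMIs of the replication list (horizontal axis) against UMIs of the mitosis list (vertical axis), both per 10000 UMIs of the barcode, in the SAP library (left) and the Control library (right), with members in colour, other kept barcodes in grey and dotted lines at ratios of 2 and 1/2. The 66 members spread over the whole plane around medians of 62.3 and 49.5, while most other kept barcodes crowd near the origin, where some members lie too.

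Chromatin and tubulin genes of dividing cells were higher from high bases. Of 24 such genes 22 were eligible, 18 were higher and none lower. Hmgb2, a DNA-bending chromatin protein found in all 66 members, stood at 3403 CPM in SAP members and 4489 CPM in Control members, against 734 and 800.0 CPM in the others, a fold of 5.14. Tubb5, a beta tubulin, was 6.69-fold higher, the polycomb methyltransferase Ezh2 6.97-fold and the maintenance DNA methyltransferase Dnmt1 3.54-fold. Of 25 clustered histone genes 12 were eligible and 10 were higher. H2ac24 stood at 383 CPM in SAP members and 1183 CPM in Control members, against 18.1 and 22 CPM in the others. H1f2, a linker histone, had a fold of 0.791.

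Some genes that hold lymphocytes in rest were lower. Among 14 eligible genes of 19, 4 were lower and none higher, with a median log2 fold of -0.56. The shares among all eligible genes were 7.61% lower and 10.7% higher. Against others of like depth 3 were lower, without Btg2, whose fold was then 0.496. Btg1, an antiproliferative factor that keeps T cells quiescent, stood at 973 CPM in SAP members and 959 CPM in Control members, against 2631 and 2835 CPM in the others, a fold of 0.353. Its relatives Btg2 and Tob1 had folds of 0.426 and 0.404, and Foxo1, a transcription factor of resting lymphocytes, 0.345. After thinning every barcode to 1000 UMIs, Btg1 was found in 54.5% of members (41.8 to 66.9) and 86.7% of the others (86.0 to 87.4), with 18.8% in barcodes over the Rps19-ps6 limit; unthinned, the shares were 98.5% and 97.4%. Klf2, a quiescence factor, stood against the list at 2.36-fold, with 42.9 CPM in SAP members and 90.8 CPM in Control members, against 29.6 and 27.2 CPM. The inhibitors Cdkn1b and Cdkn1a had folds of 0.497 and 0.719, and Cdkn1b differed by more than 2-fold in Control alone. Of 8 eligible genes of 11 in the list of G1 cyclins and MYC, 2 were higher and 2 (Mxd4 and Mxi1) lower, with a median log2 fold of 0.11 that TMM scaling turned to -0.06. E2f3, an E2F factor, was 7.37-fold and the kinase Cdk4 3.80-fold higher, while Mxd4 and Mxi1, antagonists of MYC, stood at 0.430-fold and 0.435-fold. Cyclin D2 (Ccnd2) had a fold of 0.486 and missed the limit in Control.

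The lineage of the members was mixed, and each main lineage of the gut was found among them. Trdc, the delta chain constant region, Cd4 and Cd8b1 rarely met in a member. No member held both Trdc and Cd4, none held both Trdc and Cd8b1, and 1 held both Cd4 and Cd8b1. Trdc was found in 16 members (4 SAP, 12 Control), Cd8b1, the CD8 beta chain, in 17 (7 SAP, 10 Control), and Cd4 without Cd8b1 in 14 (6 SAP, 8 Control). Another 15 members (6 SAP, 9 Control) held Cd8a with none of these, and 4 (1 SAP, 3 Control) held none of the 4 genes. Most of the Trdc members also held Trac, the alpha chain constant region (14 of 16), at 1 to 6 UMIs. All 16 held an alpha-beta chain, some with more UMIs than of Trdc. Among the shallower others of like depth described below, 1099 of 1646 barcodes with Trdc held Trac. Free RNA can place a UMI in a barcode, and whether any of these alpha-beta chain UMIs came that way was not tested.

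**Figure D3:**
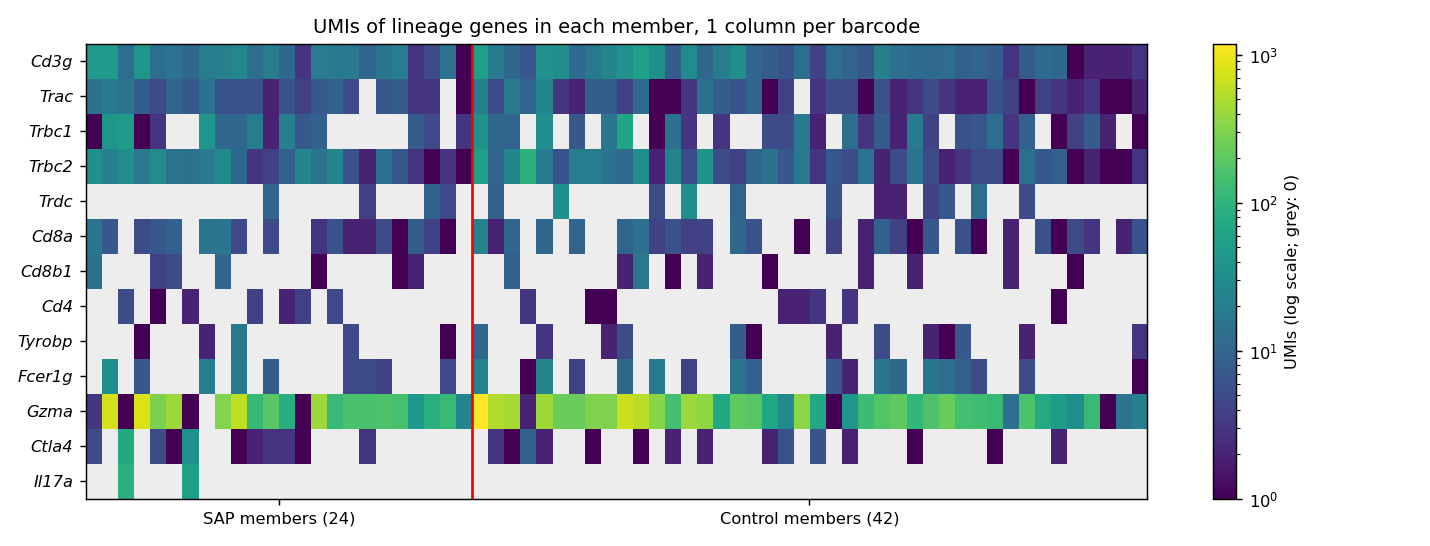
UMIs (colour, log scale, grey for 0) of 13 lineage and function genes (rows) in each of the 24 SAP members (left of the red line) and 42 Control members (right), ordered by depth within each library. Trdc, Cd8b1 and Cd4 fall mostly in different columns, and Il17a is found in 2 SAP members.

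The make-up was set beside that of other barcodes of like depth, those between the 10th and 90th percentile of the members' UMIs in each library (1362 SAP and 1763 Control barcodes). Trdc was found in 24.2% of members (14.5 to 36.4), against 52.7% of these others (50.9 to 54.4). Cd8b1 without Trdc was found in 25.8% of members (15.8 to 38.0), against 9.98% (8.95 to 11.1), and Cd4 without either in 21.2% (12.1 to 33.0), against 4.42% (3.72 to 5.20). Cd8a alone was found in 22.7% of members (13.3 to 34.7), against 26.9% (25.4 to 28.5).

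The others of like depth were still shallower, with medians of 5301.5 UMIs in SAP and 4686 in Control, and deeper barcodes find more genes. Thinned to 2000 UMIs, where 63 of 66 members and 8092 of 10533 others remained, Trdc was found in 23.8% of members (14.0 to 36.2) and 41.6% of the others (40.5 to 42.7). Cd4 without Cd8a or Cd8b1 was found in 9.52% of members (3.58 to 19.6) and 2.62% of the others (2.28 to 2.99), but in SAP in 1 of 24 members (4.17%) and 2.65% of the others. Cd8b1 was found in 11.1% of members (4.59 to 21.6) and 9.84% of the others (9.20 to 10.5). Thinned to 1000 UMIs, Cd4 without Cd8a or Cd8b1 was found in 6.06% of members (1.68 to 14.8) and 1.78% of the others (1.53 to 2.07), with overlapping intervals. At 2000 UMIs the share with Cd8b1 in members could not be told from that in the others, while in barcodes over the Rps19-ps6 limit, where the 12 T cell markers summed to 165 CPM in SAP and 424 CPM in Control, the shares were 4.17% for Trdc, 0 of 72 for Cd4 without Cd8a or Cd8b1 and 1.39% for Cd8b1. Unthinned, Trdc was found in 24.2% of members and 44.2% of the others, Cd4 without Cd8a or Cd8b1 in 16.7% and 3.40%, and Cd8b1 in 25.8% and 12%. Median depths before thinning were 8975.5 UMIs in members, 3255 in the others and 23044 in those barcodes.

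The level of Trdc was lower in members of both libraries. Trdc stood at 100.2 CPM in SAP members and 349.8 CPM in Control members, against 538 and 508 CPM in the others. Its fold was 0.186 in SAP (0.124 to 0.269) and 0.688 in Control (0.575 to 0.818). Of the Control members' UMIs, 35 and 33 came from 2 members, and without them Trdc stood at 180.0 CPM in Control members and the ratio was 0.354, a choice made after the data had been seen. Cd4 stood at 82.3 and 42.7 CPM in members, against 22.2 CPM in the others of each library, and Cd8b1 at 136 and 104 CPM, against 77.3 and 68.5 CPM. Cd8a stood at 419 CPM in SAP members and 470.0 CPM in Control members, against 659 and 604 CPM. None of the 3 eligible coreceptor genes or the 4 eligible gamma-delta receptor genes was 2-fold apart in both libraries. Against others of like depth, which had Cd4 at 14.8 CPM in SAP and 17.6 CPM in Control, the fold of Cd4 was 3.86 and it was higher in both libraries.

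None of the receptor chain or CD3 genes was 2-fold apart in both libraries. Trac had a fold of 1.19, Trbc1 1.18 and Trbc2 1.17, and the median log2 fold of the 3 was 0.24, or 0.08 with TMM scaling. The gamma chain genes Trgc1, Trgc2 and Trgc4 had folds of 0.807, 1.65 and 0.925. Cd3e stood at 963 CPM in SAP members and 1191 CPM in Control members, against 1539 and 1613 CPM, a fold of 0.683, and Cd3g had a fold of 0.728. Of the 11 eligible genes of the CD3 and receptor signalling list, 1 was higher, Thy1, a surface glycoprotein of conventional T cells, at 129 CPM in SAP members and 123 CPM in Control members, against 63.3 and 54.8 CPM. Thy1 belongs to the conventional memory list as well and was the higher gene among its 8 eligible genes, where Il7r was lower. Among all eligible genes 10.7% were higher and 7.61% lower, so nothing is read from the counts of these 2 lists. Cd5, a brake on receptor signalling, Cd28, a costimulator, and Cd44, an adhesion receptor, had folds of 1.45, 1.46 and 1.69 in that list.

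Innate and natural intraepithelial genes were lower in part. Of 16 genes 10 were eligible, 5 were lower and none higher, with a median log2 fold of -1.04. The shares among all eligible genes were 7.61% lower and 10.7% higher. Tyrobp, a signalling adaptor of innate receptors, stood at 93.0 CPM in SAP members and 139 CPM in Control members, against 603 and 607 CPM in the others, a fold of 0.192. Fcer1g, the other adaptor, had a fold of 0.393, the CD94 chain Klrd1 0.342, the related receptor Klre1 0.317 and Ikzf2, or Helios, 0.343. Cd160, a receptor of intraepithelial T cells, ran against the list, with 383 CPM in SAP members and 312 CPM in Control members, against 229 and 189 CPM, a fold of 1.66. Thinned to 1000 UMIs, Tyrobp was found in 7.58% of members (2.51 to 16.8) and 28.4% of the others (27.5 to 29.3; 27.3% and 38.7% unthinned), and Cd160 in 34.8% of members (23.5 to 47.6) and 16.5% of the others (15.8 to 17.3; 78.8% and 35.6% unthinned). Each was found in 1.25% of barcodes over the Rps19-ps6 limit.

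The adaptors were found mostly in members of 2 of the lineage groups. Tyrobp or Fcer1g was found in 13 of the 16 Trdc members and 12 of the 15 members with Cd8a alone, but in 1 of 17 with Cd8b1 and 3 of 14 with Cd4. In others of like depth these shares were 82.1% with Trdc, 88.8% with Cd8a alone, 20.2% with Cd8b1 and 20.3% with Cd4. The level was lower within those lineages too: Tyrobp stood at 158 CPM in the Trdc members and 316 CPM in the Cd8a members, against 662 and 1126 CPM in the same groups of others. For Fcer1g the gap was smaller, with 972 CPM in the Trdc members and 1004 CPM in the Cd8a members, against 1373 and 1760.5 CPM. When both sets were limited to barcodes with Trac and without Trdc (20 SAP and 29 Control members), the folds were 0.176 for Tyrobp, 0.334 for Fcer1g, 0.328 for Klrd1 and 0.340 for Ikzf2. With Cd8a and no Cd4 (16 SAP and 27 Control members) the folds were 0.214 for Tyrobp, 0.456 for Fcer1g, 0.398 for Klrd1 and 0.397 for Ikzf2. Both limits were set after the data had been seen. The others here were of any depth, 1951 SAP and 2252 Control barcodes under the first limit and 3286 and 3624 under the second. Neither limit fixes the mix of lineage groups, and the part of that mix in these folds was not tested.

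**Figure D4:**
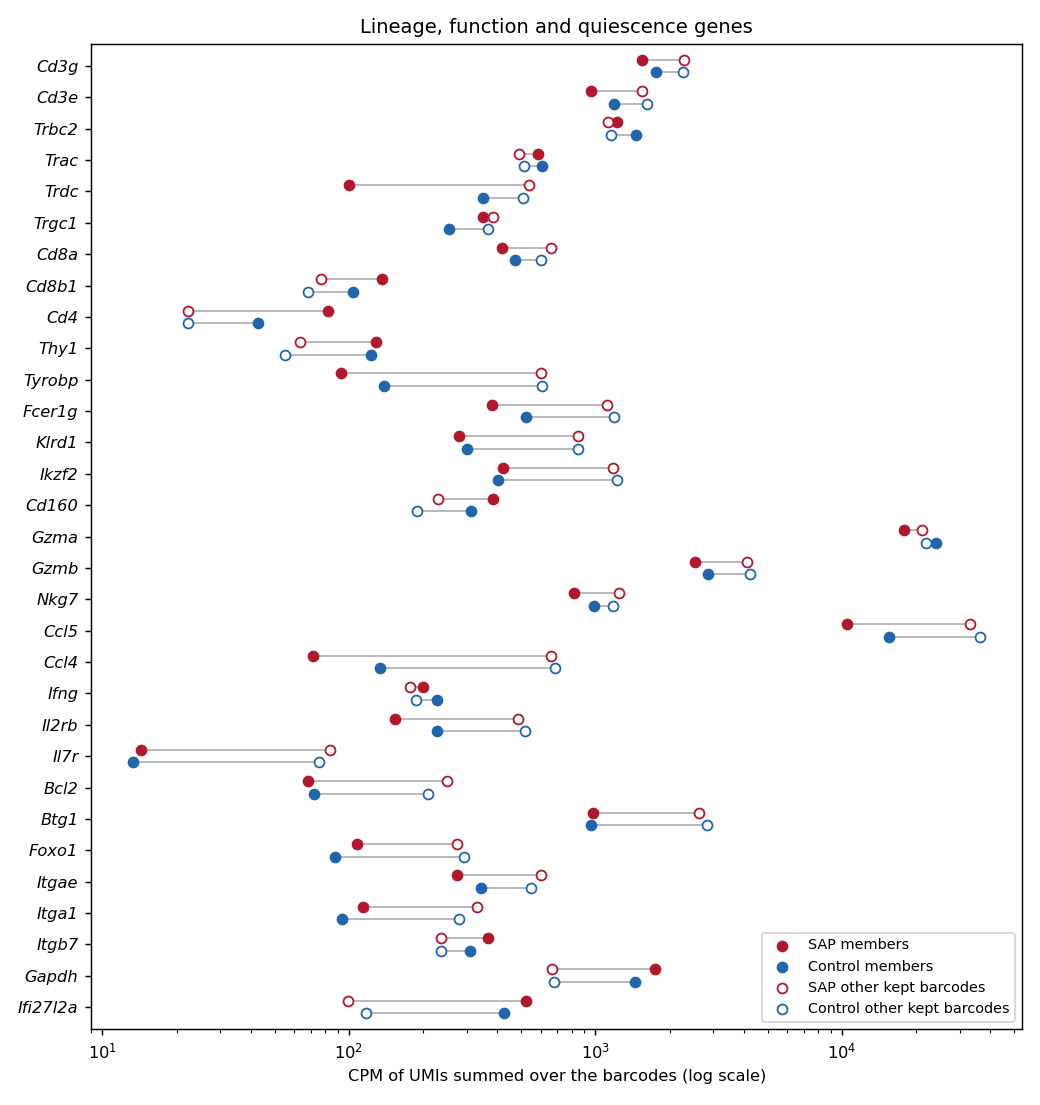
CPM of summed UMIs (horizontal axis, log) for 31 genes of lineage, function and rest, with members as filled points and other kept barcodes as open points, SAP in red above Control in blue. Tyrobp, Ccl4, Il7r, Bcl2 and Btg1 lie lower in members of both libraries, Cd160, Thy1, Gapdh and Ifi27l2a lie higher, and Gzma lies on opposite sides.

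Of 10 eligible granule genes 1 was lower in both libraries and none higher, while 3 CCL chemokines were lower. Among all eligible genes 7.61% were lower and 10.7% higher. Gzma, or granzyme A, a protease of cytotoxic granules, stood at 17793 CPM in SAP members and 24114 CPM in Control members, against 21139 and 21839 CPM in the others, a fold of 0.975 that lay below 1 in SAP and above 1 in Control. It was found in 65 of the 66 members, with a median of 150 UMIs and at most 1181. Granzyme B (Gzmb) had a fold of 0.649 and Nkg7, a granule membrane protein, 0.744. The exception among 10 eligible genes was Serpinb9, the inhibitor that shields a cell from its own granzyme B, with a fold of 0.299.

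The chemokine Ccl5 stood at 10503 CPM in SAP members and 15507 CPM in Control members, against 32966 and 36311 CPM in the others, a fold of 0.375. Ccl4 and Ccl3, inflammatory chemokines, had folds of 0.152 and 0.206, so 3 of the 8 eligible chemokine and cytokine genes were lower. Interferon gamma (Ifng) had a fold of 1.17, with 1.13 in SAP (0.852 to 1.47) and 1.21 in Control (0.964 to 1.5).

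Lineage groups of members were set beside the same groups of others of like depth. Gzma stood at 25125 CPM in Trdc members, 21704 CPM in Cd8b1 members, 9599 CPM in Cd4 members and 30521 CPM in members with Cd8a alone. In the same groups of others it stood at 24663, 13478, 9297 and 31049 CPM, so that the largest gap was in the Cd8b1 group. In the Cd4 group the libraries differed, with 4285 CPM in SAP members and 14925 CPM in Control members, against 9872 and 8870 CPM. Ccl5 stood at 25705, 11211, 3494 and 15308 CPM in these members, against 35902, 31895, 11930 and 40809 CPM, and it was lower in members of all 4 groups in each library. These sums run over both libraries and rest on 14 to 17 members a group.

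Cytokine receptors were lower in part. Among 8 eligible of 17, 4 were lower and none had a fold above 1, with a median log2 fold of -1.11. Il7r, the receptor for the survival factor IL-7, had 9 UMIs in 6 members and stood at 14.3 CPM in SAP members and 13.4 CPM in Control members, against 83.5 and 75.8 CPM. Il2rb, the chain that IL-2 and IL-15 share, had a fold of 0.381, Il4ra 0.285 and Ifngr1 0.449. Bcl2, a survival protein downstream of these receptors, stood at 68.0 and 72.1 CPM in members, against 251 and 209 CPM in the others, a fold of 0.304. Of 15 eligible survival genes Bcl2 and Birc2 were lower and Bak1, a pore-forming death effector, was higher at 2.95-fold. Among all eligible genes 7.61% were lower and 10.7% higher, so nothing is read from the counts of the survival list.

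Of 13 eligible adhesion and homing genes 3 were lower and 1 was higher, where 7.61% and 10.7% of all eligible genes were. Nothing is read from counts this small. Itga1, the collagen-binding alpha chain, had a fold of 0.341, and Gpr55, a lipid receptor, 0.30, and Cxcr6 was the third of 13 eligible genes that were lower. Itgae, the alpha chain that binds E-cadherin of the epithelium, stood at 276 CPM in SAP members and 342 CPM in Control members, against 603 and 547 CPM, a fold of 0.537. Its partner Itgb7 had a fold of 1.43 and the gut homing receptor Ccr9 1.08. Itgal, the alpha chain of LFA-1, was higher at 2.16-fold, though 26.0% of its 50 UMIs came from 1 member.

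Few genes of receptor signals and stress were 2-fold apart, but so were few of all 3313 eligible genes (7.61% lower and 10.7% higher). Nothing is read from counts this small. Of 13 eligible activation genes, 1 was lower, the nuclear receptor Nr4a2, at 369 CPM in SAP members and 307 CPM in Control members, against 997 and 910.4 CPM, while its relative Nr4a1 had a fold of 0.852. Batf, a factor of activated T cells, had a fold of 2.44 and missed the limit in Control, with 165 CPM in SAP members and 77.4 CPM in Control members, against 49.1 and 50 CPM. The heat shock genes Hspa1a and Hspa1b had folds of 0.326 and 0.228, and the other 14 eligible genes of the immediate early and heat shock list were less than 2-fold apart in at least one library. Among 12 eligible lineage factors Ikzf2 and Gata3 were lower. Tbx21 and Runx3, factors of cytotoxic fate, had folds of 0.457 and 0.602. None of the 4 eligible inhibitory receptors was 2-fold apart in both libraries, with a median log2 fold of -0.81.

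Metabolic genes were higher by smaller factors. Of 16 glycolysis genes found 9 were eligible and 6 were higher, with a median log2 fold of 1.29. Gapdh stood at 1750 CPM in SAP members and 1445 CPM in Control members, against 669 and 680.2 CPM in the others, a fold of 2.37, and Pgk1 was 3.11-fold, Tpi1 2.98-fold and Pkm 2.60-fold higher. All 24 nuclear genes of oxidative phosphorylation that were found were eligible, 23 had folds above 1 in plain totals and 8 were higher in both libraries, led by Ndufa4 at 2.91-fold and Cox5b at 2.78-fold. The 9 eligible mitochondrially encoded genes had a median log2 fold of 0.14 in plain totals and -0.03 with TMM scaling.

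Protein synthesis and turnover followed at lower folds. Of 15 eligible genes of ribosome biogenesis 3 were higher (Gar1, Nhp2 and Pa2g4), led by Pa2g4, a nucleolar growth factor, at 3.34-fold. None of 22 ribosomal protein genes was 2-fold apart, with a range of 0.540 for Rps27 to 1.83 for Rps2, although with TMM scaling Rps27 stood at -1.06 on the log2 scale. All 17 proteasome genes had folds above 1 in plain totals, with a median log2 fold of 0.75 (0.58 with TMM scaling), and Psmb2 and Psmb5 were higher in both libraries, though against others of like depth none was. Among all eligible genes 10.7% were higher. Cholesterol synthesis had no gene 2-fold apart in both libraries among 10, with a median log2 fold of 0.02, or -0.14 with TMM scaling. Of the fucosylation genes, which bear on the tagging reaction, only B4galt1 was eligible, at 39.4 CPM in SAP members and 53.4 CPM in Control members, against 90.6 and 104 CPM, and against others of like depth it was lower in both libraries.

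**Figure D5:**
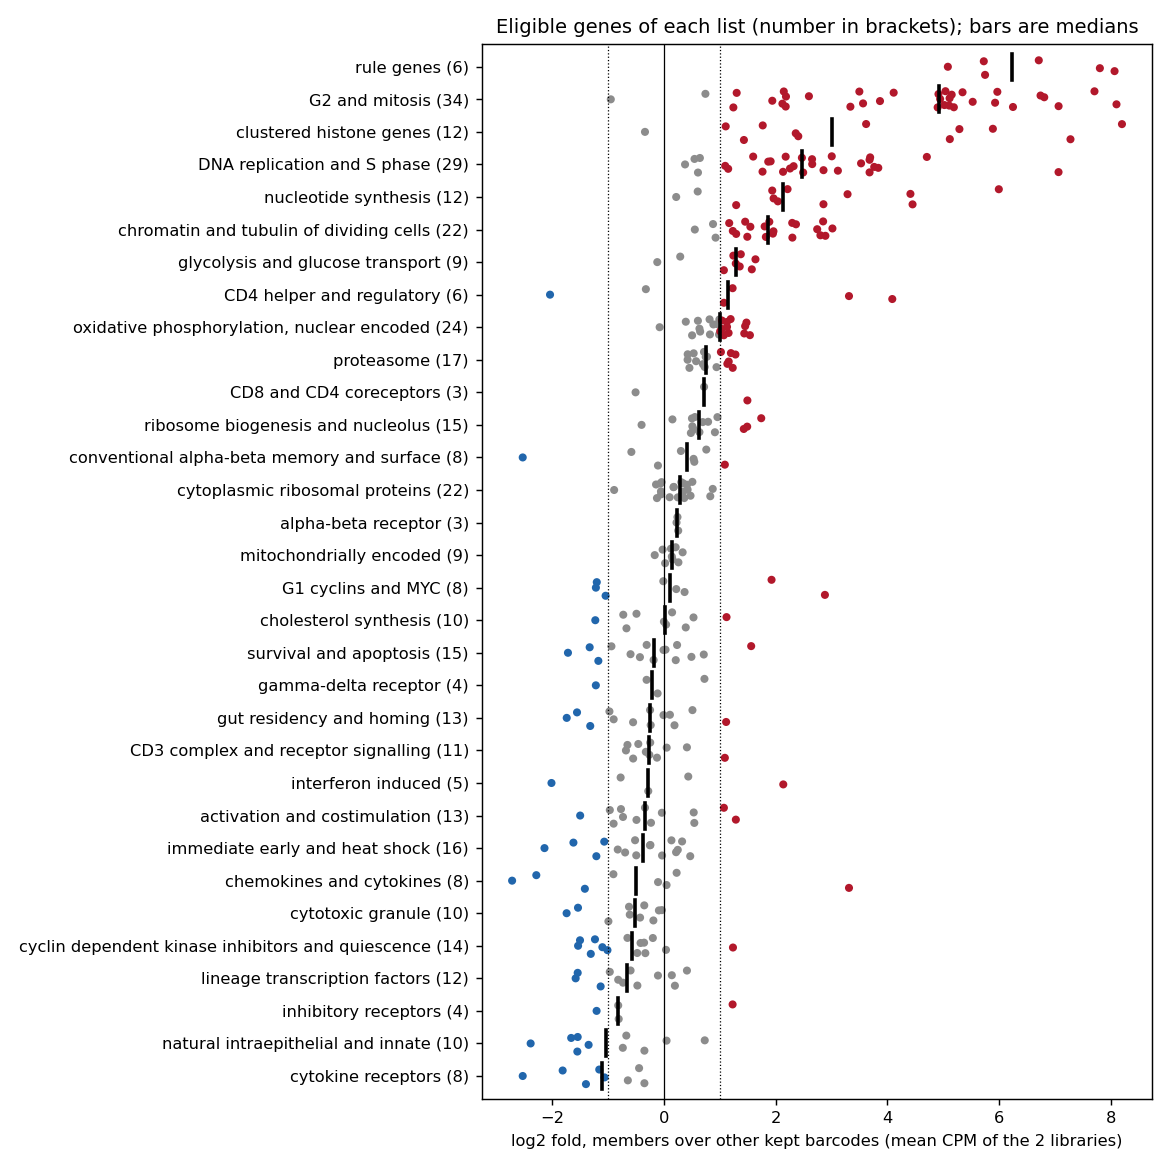
The log2 fold of each eligible gene (horizontal axis) by gene list (rows, number of eligible genes in brackets), with black bars at the medians, red for at least 2-fold higher and blue for at least 2-fold lower by the mean of both libraries. Medians run from 6.23 for the rule genes, which were chosen for it, and 4.93 for G2 and mitosis to -1.11 for cytokine receptors.

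Some genes outside the lists were far apart. Lgals1, or galectin-1, stood at 819 CPM in SAP members and 782 CPM in Control members, against 51.0 and 55.1 CPM in the others, a fold of 15.1, and was found in 49 members. Thinned to 1000 UMIs it was found in 37.9% of members (26.2 to 50.7) and 3.01% of the others (2.68 to 3.37), and unthinned in 74.2% and 7.53%. Barcodes over the Rps19-ps6 limit held it in 52.5% when thinned, at 1118 CPM in SAP and 1016 CPM in Control, and their part in the members' level was not tested. The 12 highest genes outside the lists also held the phosphatase Cdkn3 at 57.2-fold, the kinetochore protein Cenph at 47.2-fold and Tipin, a fork protection factor, at 12-fold. Ifi27l2a, an interferon-induced gene, was 4.4-fold higher, with 522 CPM in SAP members and 427 CPM in Control members, against 99.3 and 117 CPM, whereas Isg15 of the same list had a fold of 0.585.

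At the low end stood Klrh1, a C-type lectin receptor gene, with no UMI in SAP members, where 3 UMIs would have been 10.7 CPM, and 1 UMI in Control members (2.67 CPM), against 119 and 129 CPM in the others. Its ratio in Control was 0.0206 (0.000523 to 0.115). Among the others Klrh1 was found in 389 of 4941 SAP barcodes and 458 of 5592 Control barcodes. The interval counts UMIs and takes no account of their clustering in few barcodes. Irs2, an adaptor of insulin and cytokine receptors, had a fold of 0.159, with 20 UMIs in 12 members. Dtx4, a ligase linked to Notch signalling, had 6 UMIs in 5 members, with ratios of 0.0631 in SAP (0.00763 to 0.228) and 0.0841 in Control (0.0229 to 0.216).

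A few genes were carried by single members. Il17a, the cytokine IL-17A, had 147 UMIs in 2 SAP members (90 and 57) and none in Control members, where 3 UMIs would have been 8.01 CPM, against 22 CPM in the SAP others and 31.0 CPM in the Control others. Both members held Cd4 (5 and 2 UMIs) and no Cd8a, Cd8b1 or Trdc, and they held Il22 (13 and 2 UMIs) as well. The member with 57 Il17a UMIs also held 23 UMIs of the gamma chain gene Trgc1, the most of any member, and the other held none. Others of like depth had Il17a at 7.58 CPM in SAP and 4.67 CPM in Control. The 2 members with Il17a held 74 and 37 of the 176 Ctla4 UMIs of all members, and Ctla4 stood at 483 CPM in SAP members and 109 CPM in Control members, against 129 and 124 CPM. Il1r2, a decoy receptor for IL-1, had 22 of its 31 UMIs in the same member as the most Il17a, and against others of like depth it was no longer higher in both libraries. Cxcr4 had 45 UMIs in 7 members. Foxp3, the factor of regulatory T cells, had no UMI in any member, against 1.45 CPM in the SAP others and 2.21 CPM in the Control others. The 6 eligible genes of the CD4 helper and regulatory list, Il17a, Il17f and Ctla4 among them, had a median log2 fold of 1.15, but -0.10 in Control alone, and 1 gene was lower in both libraries, Bcl6, the factor of follicular helper cells, with a fold of 0.244.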

How the data were processed

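Droplet RNA libraries of ileum T cells, 1 for SAP and 1 for Control, were deposited by the authors as raw UMI counts per gene and barcode; per the file headers they were made with Cell Ranger 7.1.0. The mm10 build and the tool Seurat are listed in the submitters' processing notes. The deposited matrices held 5203 SAP and 5737 Control barcodes with 19144320 and 19142384 UMIs over 55357 gene identifiers. The limits on UMIs, genes, mitochondrial share and Rps19-ps6 and the member rule were applied as given above, and 63 SAP and 31 Control barcodes were over the Rps19-ps6 limit. The members and the 33 gene lists were chosen with earlier results of these data known, and 10 list symbols were not found. UMIs were summed by library and set, without normalization beyond the total. With 1 library per group no test was made. Ratios have exact conditional binomial 95% intervals and shares exact Clopper-Pearson 95% intervals, which cover counting error only. Shares were compared after thinning each barcode to 1000 or 2000 UMIs. Genes named were the rule genes, up to 4 highest and 4 lowest eligible genes of each list with the lineage genes, and the 12 highest and 12 lowest 2-fold genes outside the lists. Ccnb2, Cdk1, Cdkn1a, Cdkn1b, Dnmt1, Fcer1g, Foxp3, Hmgb2, Il22, Itgae, Mcm3, Nkg7, Nr4a1, Pcna, Psmb5, Runx3, Top2a and Tubb5 fall outside that rule and were picked after their values were seen. The script was tested on simulated data, where 100.0% of genes simulated at 3-fold and 66.0% at 0.4-fold were called and 0.0% of 2779 unchanged genes. The simulation drew counting error alone around the summed profile of the others, with no variation between cells and no choice of members. Its rates therefore do not cover such variation in the real members. Tools were Python 3.11.15, NumPy 2.4.6, SciPy 1.17.1, pandas 2.3.3, Scanpy 1.11.5 (Scrublet), Matplotlib 3.10.9 and, for TMM factors, edgeR 4.0.16 in R 4.3.3. Alternatives covered the rule, the filters, the scaling, the comparison barcodes and each library alone.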

Additional observations from a re-analysis of the deposited data

Results flagged for a closer look

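Il17a stood apart between the libraries. The ratio of members over others was 23.9 in SAP (19.6 to 29.0) and 0 in Control (0 to 0.319), a difference that was not tested, since all 147 UMIs came from 2 of the 24 SAP members and there was 1 library per group. Against others of like depth, with 7.58 CPM in SAP and 4.67 CPM in Control, the fold of the mean of both libraries was 42.9 in place of 9.93.

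The member thresholds were also met outside the kept barcodes. Of the barcodes over the Rps19-ps6 limit, 18 of 63 in SAP and 5 of 31 in Control held at least 5 UMIs of the rule genes with at least 3 of them found. In these left-out barcodes Stmn1 stood at 438 CPM in SAP and 504 CPM in Control, Mki67 at 0.673 and 0 CPM, and the epithelial markers summed to 1813 and 1938 CPM. They are not among the members or the other kept barcodes, and their values above are given as a background.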

How the results depend on the processing

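The number of members and of genes 2-fold apart stayed within 1.5 times of the values given under most alternatives. Against 354 higher and 252 lower genes, an eligibility limit of 100 CPM gave 219 and 140, 20 UMIs alone with no CPM limit gave 912 and 3094, SAP alone gave 534 and 528, and Control alone gave 540 and 390. TMM scaling gave 381 lower genes. With others limited to the members' depth, 314 of the higher and 221 of the lower genes were shared with the main comparison. The median log2 fold of the CD4 helper and regulatory list, 1.15, was -0.10 in Control alone and -0.53 among barcodes with Cd8a and without Cd4; the cause was not tested. Under TMM scaling 5 of 247 genes moved beyond the range of their counting intervals, under depth-matched others 7, among barcodes with Trac and without Trdc 7 and with Cd8a and without Cd4 9, and no called gene turned its direction under any alternative that gave a value. A gene with no UMI on one side under an alternative has no value there. The lowest list median was that of cytokine receptors (-1.11) in the main comparison, but that of the natural intraepithelial list in Control alone (-1.33) and with depth-matched others (-1.08). The natural intraepithelial list was also lowest with a rule gene sum of at least 10 (-1.24) and with a sum per 10000 UMIs of at least 5 (-1.24). Among barcodes with Cd8a and without Cd4 the lowest median was that of chemokines (-1.32). The alternatives limited to Trac without Trdc and to Cd8a without Cd4 were chosen after seeing the data. No paired analysis was possible because each group had 1 library and the labels carry no replicate numbers. A level under 10.7 CPM in the 24 SAP members or 8.01 CPM in the 42 Control members rests on fewer than 3 UMIs, and free RNA was not modelled.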
